A study of Mus musculus with 16 samples.

Results

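Transcripts of the soft centre of the intervertebral disc, the nucleus pulposus (NP), were compared between Sirt6 cKO and Sirt6 fl/fl mice at 24 months of age, with 4 arrays per genotype. The genes described were chosen by signal, not by difference. A gene was included when its log2 signal was at least 1 log2 unit over the array's own background (the median of its 23 background controls) on 4 or more of the 8 NP arrays, and 2791 of 19505 named genes (14.3%) met this rule. All 2791 were among the 16665 genes that entered the tests. Sirt6 cKO mice carried 2 floxed Sirt6 alleles and the tamoxifen-inducible Acan CreERT2 allele, which acts in aggrecan-expressing cells of the NP, the annulus fibrosus (AF) and the endplate. Sirt6 fl/fl mice were littermates with the floxed alleles and without Cre, and both genotypes received tamoxifen as young adults. Each array carried the NP of 1 mouse, pooled over lumbar and caudal discs, so p-values measure the spread between these mice.

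SIRT6 is a nuclear enzyme that uses NAD to remove acetyl groups from histone H3, and it is known for keeping gene promoters closed, for DNA repair and for limiting glycolysis. NP cells descend from the notochord, live without blood vessels at low oxygen, draw on glycolysis for energy and surround themselves with aggrecan and collagen II. Keratins 8, 18 and 19 mark them. In bulk tissue, fewer cells of a type and less RNA per cell cannot be told apart.

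The Sirt6 probe set read 3.69, 3.71, 3.81 and 4.54 (log2 signal) on cKO arrays 1 to 4, against 3.74, 3.78, 4.21 and 4.12 on fl/fl arrays 1 to 4. The genotypes overlapped fully, no array lay over background, and an exact permutation test of both sides gave p = 0.8286, where a design of this size cannot go below 0.0286. The log2 difference of -0.03 turned positive without cKO array 1, 2 or 3 or without fl/fl array 3 or 4. Whether the probe set covers the floxed exons is unknown here, so its signal does not check the genotype labels. Of the other sirtuins, Sirt2 and Sirt3 were over background on all 8 arrays. Sirt2, a mostly cytoplasmic tubulin deacetylase, averaged 7.14 ± 0.47 in cKO NP and 7.42 ± 0.60 in fl/fl NP (SD, n = 4 each). Sirt3, the main mitochondrial deacetylase, averaged 6.05 ± 0.32 in cKO NP and 5.999 ± 0.18 in fl/fl NP.

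NP markers were read on the same arrays. Of 10 on the array, 5 were over background on 4 or more arrays, where 14.3% of all named genes were. Krt8, the type II keratin of the NP, read 10.56, 6.98, 9.57 and 7.66 on cKO arrays 1 to 4, against 8.94, 7.48, 8.28 and 10.12 on fl/fl arrays, so it was present on every array and its groups overlapped. Krt19 averaged 5.48 ± 0.74 in cKO NP and 6.21 ± 0.53 in fl/fl NP, and Krt18 was over background on 4 of 8 arrays only. The cadherin gene Cdh2 and the carbonic anhydrase gene Car3 were over background on 5 and 7 arrays. The notochord transcription factor genes Foxa2 and Noto and the signalling gene Shh were over background on 0, 2 and 1 arrays. The remaining markers, Cd24a and Pax1, were over background on 3 and 0. In fl/fl mice Krt8 and Krt19 averaged 8.70 and 6.21 in NP, and 7.29 and 4.87 in the AF. The other markers averaged no lower in fl/fl AF than in fl/fl NP, such as Cdh2 at 7.01 and 5.46. Presence on the NP arrays thus does not check the tissue label. Of markers of the neighbouring annulus and tendon, 3 of 8 were over background on 4 or more arrays (Mkx, Tnmd and Col1a1), as were 3 of 7 neutrophil and 2 of 7 keratinocyte markers, while 0 of 7 endothelial, 0 of 7 osteoclast and 0 of 2 erythroid markers were.

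Between 3025 and 3476 named genes lay over background on an array. This was a low bar. Of 5222 control probe sets that read introns, 27.1% met the same rule, and of 1324 that read exons, 29.6% did, so genes near the bar may carry no transcript signal beyond that of the controls. Just inside the rule were Glt1d1 and Arhgef2 (the fourth highest array 1.0002 and 1.0009 log2 units over background), and just outside were Pdlim2 and Fahd2a (0.99992 and 0.99973). Of the 2791 genes, 928 were over background on all 8 arrays, 5 passed through the cKO arrays alone and 9 through the fl/fl arrays alone. Across the 8 arrays a gene spanned 1.54 log2 units in the median, from 0.05 to 13.4, and 464 genes stayed within 1 unit. The number of arrays limits the precision of every value below.

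One pair of arrays stood together. Over the 2791 genes, cKO arrays 1 and 3 correlated at 0.872, the highest of all pairs, while cKO arrays 1 and 4 gave the lowest value, 0.483, and pairs of fl/fl arrays gave 0.696 to 0.757. These correlations run across genes, which are not independent replicates. The 2 highest of the 8 arrays were cKO 1 and cKO 3 for 303 genes (10.9%), against 158 for the next pair, cKO 4 with fl/fl 2. Several differences below are therefore also given without those arrays.

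To see which transcripts differed after Sirt6 loss, each gene was compared between genotypes with limma, a linear model that pools the spread over genes. No gene was called: 0 of 2791 had an adjusted p under 0.05 (0% of the 16665 tested), the lowest adjusted p was 0.934, and 823 tested genes had an unadjusted p under 0.05. Of the 2791, 93 were higher and 101 lower in cKO at an unadjusted p of at most 0.05, where 2.48% and 2.45% of all tested genes were. With a log2 difference of at least 0.81 in size as well (together, the thresholds that the study states), 69 genes (2.47%) were higher and 57 (2.04%) lower in cKO, against 1.41% and 0.978% of all tested genes. Genes over background spread more than tested genes at large in cKO NP (median SD 0.4999 against 0.4004), and 7 of the 126 had passed the background rule through 1 genotype alone, so nothing is read from the higher shares. In 38 genes every cKO array lay over every fl/fl array and in 39 every cKO array lay under, which is 1.36% and 1.40% beside 1.3% and 1.51% of all tested genes. The median log2 difference was -0.04, against -0.02 over all tested genes. Counts past the thresholds in the gene lists below stand beside the shares of 2.47% and 2.04%, at which a short list often holds none.

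**Figure D1:**
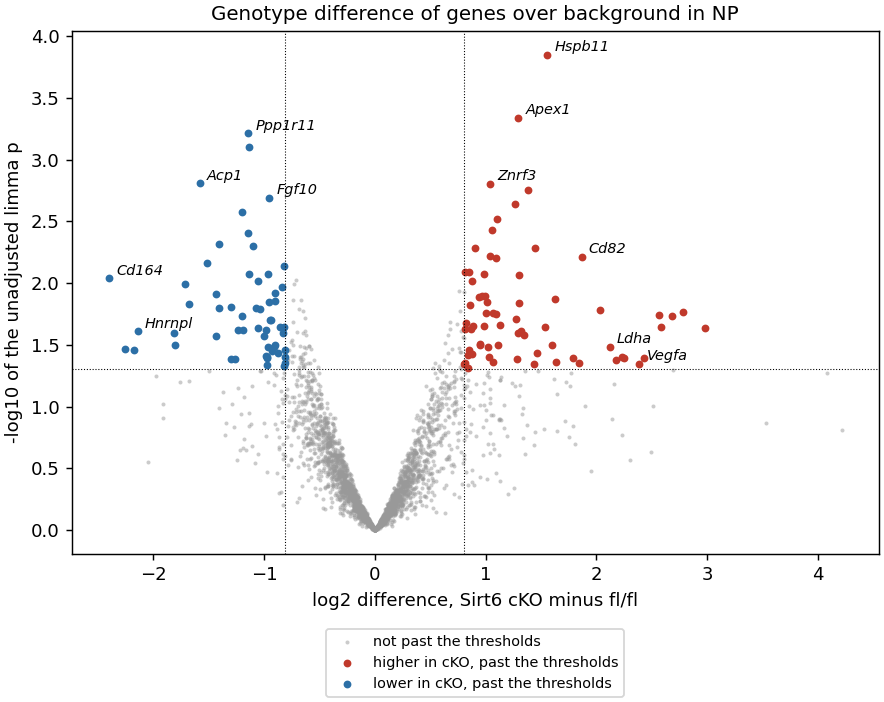
Log2 difference between Sirt6 cKO and fl/fl NP (x axis, cKO minus fl/fl) against -log10 of the unadjusted limma p (y axis) for the 2791 genes over background. Dotted lines mark the thresholds, and 69 genes lie past both on the right and 57 on the left, and none passed adjustment.

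Among the genes higher in cKO that were over background on all 8 arrays, Znrf3 had the lowest p, followed by Taf8. Znrf3, a ubiquitin ligase that clears Wnt receptors from the cell surface, read 8.42, 8.36, 7.74 and 8.19 on cKO arrays 1 to 4, against 7.19, 7.47, 6.90 and 6.99 on fl/fl arrays 1 to 4. Every cKO array lay over every fl/fl array, and the log2 difference was 1.04 ± 0.26 (SE), or 2.06-fold (limma unadjusted p = 0.00158, adjusted p = 0.934). Taf8, a subunit of the general transcription factor TFIID, read 6.67, 6.33, 7.46 and 6.99 in cKO, against 5.75, 5.396, 6.01 and 6.06 in fl/fl. Its groups did not overlap either, with a log2 difference of 1.06 ± 0.29 (SE).

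Mfsd13a, of the major facilitator family of membrane transporters, read 6.41, 6.73, 6.29 and 5.94 in cKO, against 4.53, 5.61, 5.37 and 5.45 in fl/fl. Srp72, a protein of the signal recognition particle that brings nascent secreted proteins to the endoplasmic reticulum (ER), read 5.60, 6.19, 6.36 and 6.30 in cKO, against 5.31, 5.14, 5.19 and 5.55 in fl/fl. Sdf4, a calcium-binding protein of the Golgi, read 6.13, 5.63, 6.12 and 5.46 in cKO, against 5.35, 4.73, 3.89 and 4.99 in fl/fl. The groups of these 3 genes did not overlap, with log2 differences of 1.10, 0.81 and 1.09. Ssxb1, Gltp (glycolipid transfer protein) and Sptb (a spectrin of the membrane skeleton) had log2 differences of 0.90, 1.04 and 0.85, and only the groups of Gltp overlapped. Srp72, Sdf4, Ssxb1 and Sptb, and Pygm below, were each over background on 4 cKO arrays and 1 fl/fl array. They met the background rule mainly through the arrays where they were high, so their lack of overlap is a description.

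Pygm and Cd82 had a different shape. Pygm, the glycogen phosphorylase of muscle, read 7.27, 5.86, 7.42 and 5.50 in cKO, against 5.39, 5.07, 5.20 and 4.62 in fl/fl. Cd82, a tetraspanin of the cell surface, read 8.03, 5.38, 7.87 and 5.52 in cKO, against 4.94, 5.03, 4.45 and 4.90 in fl/fl. In both, cKO arrays 1 and 3 lay well over cKO arrays 2 and 4, which themselves lay over every fl/fl array. Their log2 differences of 1.44 and 1.87 were 0.61 and 0.62 without cKO arrays 1 and 3, and neither gene was past the thresholds then.

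Of the 69 higher genes, cKO arrays 1 and 3 were the 2 highest for 47, and 19 had groups that did not overlap. In both directions together, 33 of the 126 did not overlap, beside 125 of all 398 tested genes past the thresholds. Nothing is read from these counts, since the thresholds favour groups that stand apart. The largest fold of the 69, 7.91, belonged to Gnas, the stimulatory G protein subunit that couples receptors to cyclic AMP, which read 11.02, 4.45, 10.4 and 6.69 in cKO, against 5.88, 5.38, 4.73 and 4.64 in fl/fl (named after its values were seen). Gnas on cKO array 2 was the lowest of all 8 arrays, and its log2 difference of 2.98 was 0.41 without cKO arrays 1 and 3. Of the 28 genes named by p in both directions, 20 were past the thresholds without cKO arrays 1 and 3, and Cd82, Pygm and 6 others were not. The log2 differences of these others were then -0.48 for Cct8, -0.77 for Maf1, -0.95 for Olfr978, -0.75 for Rps6ka6, 0.81 for Sdf4 and -0.76 for Sv2a, each of the same sign as with all arrays.

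**Figure D2:**
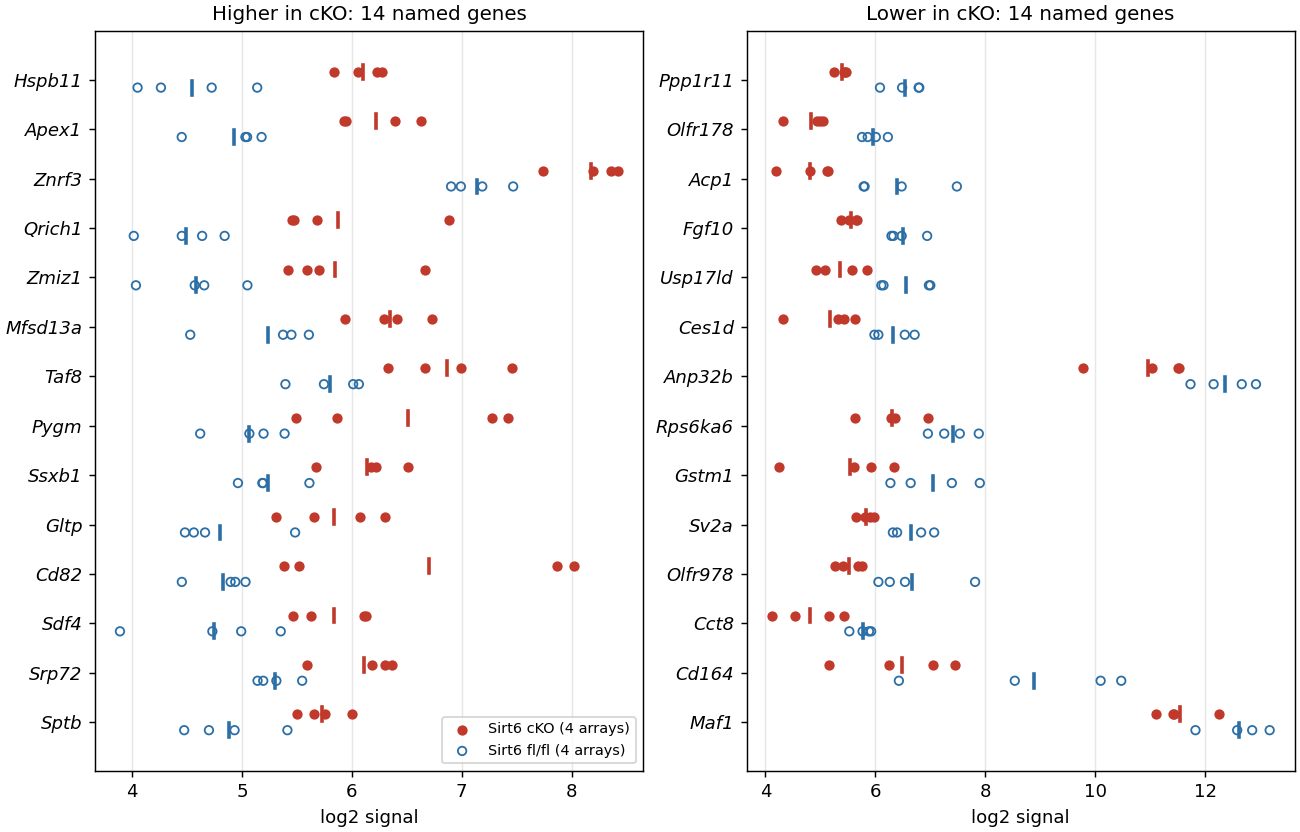
Log2 signal (x axis) of the genes named past the thresholds, 14 higher and 14 lower in cKO, ordered by p from the top. Filled red points are the 4 Sirt6 cKO arrays, drawn above the open blue points of the 4 fl/fl arrays, and short bars are means; in Cd82 and Pygm the red points form a high and a low pair.

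Among the genes lower in cKO, Ppp1r11 had the lowest p. It encodes an inhibitor of protein phosphatase 1 and read 5.24, 5.46, 5.46 and 5.43 on cKO arrays 1 to 4, against 6.49, 6.79, 6.799 and 6.08 on fl/fl arrays 1 to 4. Every cKO array lay under every fl/fl array, and the log2 difference was -1.14 ± 0.25 (SE, 2.21-fold lower in cKO, limma unadjusted p = 0.000612, adjusted p = 0.934). Fgf10, a secreted fibroblast growth factor, read 5.38, 5.65, 5.53 and 5.66 in cKO, against 6.33, 6.29, 6.94 and 6.48 in fl/fl. It was over background on all 8 arrays, its groups did not overlap, and its log2 difference was -0.96 ± 0.24 (SE). Sv2a, a glycoprotein of synaptic vesicles, averaged 5.83 ± 0.15 in cKO and 6.65 ± 0.36 in fl/fl.

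Bright genes were among them too. Anp32b, an acidic nuclear protein that binds histones, read 11.51, 11.02, 11.53 and 9.78 in cKO, against 12.66, 12.92, 12.15 and 11.73 in fl/fl. Maf1, the repressor of RNA polymerase III, read 11.43, 12.25, 11.10 and 11.42 in cKO, against 11.82, 13.17, 12.86 and 12.58 in fl/fl. The groups of Anp32b did not overlap and those of Maf1 did, with log2 differences of -1.41 ± 0.41 and -1.06 ± 0.34 (SE). Gstm1, a glutathione transferase, read 5.93, 5.62, 6.34 and 4.24 in cKO, against 7.39, 6.64, 7.90 and 6.27 in fl/fl, and only cKO array 3 reached into the fl/fl arrays.

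Cd164, a sialomucin involved in cell adhesion, had the largest negative difference of the 57 genes, -2.40 ± 0.77 (SE, 5.29-fold lower). It read 7.45, 7.05, 6.25 and 5.16 in cKO, against 6.43, 10.1, 10.5 and 8.54 in fl/fl, so that fl/fl array 1 lay among the cKO arrays. Ces1d (a carboxylesterase), Usp17ld (a deubiquitinase of a family with many near-identical copies, whose signals may be shared), Rps6ka6 (the kinase RSK4), Cct8 (a subunit of the cytosolic chaperonin) and the olfactory receptor gene Olfr978 had log2 differences of -1.15, -1.20, -1.10, -0.97 and -1.14. Of the 57 lower genes, 14 had groups that did not overlap, and these are part of the 33 of 126 given above. Fl/fl array 4 was the highest for 20 of the 57, and cKO arrays 2 and 4 were the 2 lowest for 12. Among these 57 were Sparc, Lgals3 and Anxa8 (named after their values were seen). Sparc, a collagen-binding matrix protein, read 6.54, 3.79, 7.29 and 4.04 in cKO, against 5.09, 8.70, 7.53 and 9.04 in fl/fl. Lgals3, a galectin, averaged 5.66 ± 0.68 in cKO and 7.10 ± 1.32 in fl/fl, and its highest array was fl/fl 4 at 9.06. Anxa8, an annexin, averaged 6.24 ± 0.67 in cKO and 7.95 ± 1.30 in fl/fl.

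Some genes passed the background rule through 1 genotype alone, and these differ between groups by the way they were chosen, so their values are a description. On all 4 cKO arrays and no fl/fl array were Hspb11, Apex1, Qrich1, Zmiz1 and Cd82. Hspb11, a protein of the intraflagellar transport complex of cilia, read 6.06, 6.23, 6.28 and 5.84 in cKO, against 4.05, 4.73, 5.14 and 4.26 in fl/fl. Apex1, the endonuclease that cuts DNA at lost bases in base excision repair, read 5.93, 6.39, 5.95 and 6.63 in cKO, against 5.05, 5.03, 5.18 and 4.45 in fl/fl. Neither had cKO arrays 1 and 3 as its highest pair, and Apex1 was highest on cKO arrays 2 and 4. Their SDs over the cKO arrays were 0.20 and 0.34. Qrich1 and Zmiz1, 2 regulators of transcription, were each highest on cKO array 3, at 6.88 and 6.67, and lay between 5.42 and 5.70 on the other cKO arrays.

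On all 4 fl/fl arrays and no cKO array were 9 genes, among them Olfr178 (an olfactory receptor), Acp1, Ppil4, Bend6 and Amdhd2, and the alpha-defensin genes Defa3 and Defa17, whose values were identical. Acp1, a small protein tyrosine phosphatase, read 5.13, 4.81, 4.19 and 5.11 in cKO, against 5.80, 7.48, 6.48 and 5.79 in fl/fl. Ppil4, a cyclophilin with an RNA-binding domain, averaged 4.90 ± 0.18 in cKO and 5.56 ± 0.15 in fl/fl. These last values lie close to the bar on both sides.

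The spread within each genotype was compared next. The median SD over 4 arrays was 0.4999 log2 units in cKO NP and 0.467 in fl/fl NP, and without the 5% of genes at each end it ran from 0.164 to 1.59 in cKO and from 0.149 to 1.19 in fl/fl. The SD was larger in cKO for 1525 genes, or 54.6%, against 49.7% of all tested genes. That share was 50.6% to 60.1% when 1 array was left out and 38.8% without cKO arrays 1 and 3. An SD over fewer arrays tends to be smaller, so these shares do not show which arrays its direction rests on. The upper tail was less even: 87 genes had an SD over 2 in cKO NP and 25 in fl/fl NP. Of the 87, 69 had cKO arrays 1 and 3 as their highest pair, and of the 25, 14 were highest on fl/fl array 4. Among genes with a mean signal under 6, from 6 to 8, and of 8 or over, the median SD was 0.481, 0.534 and 0.733 in cKO and 0.446, 0.486 and 0.631 in fl/fl, so bright genes spread more in both genotypes.

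**Figure D3:**
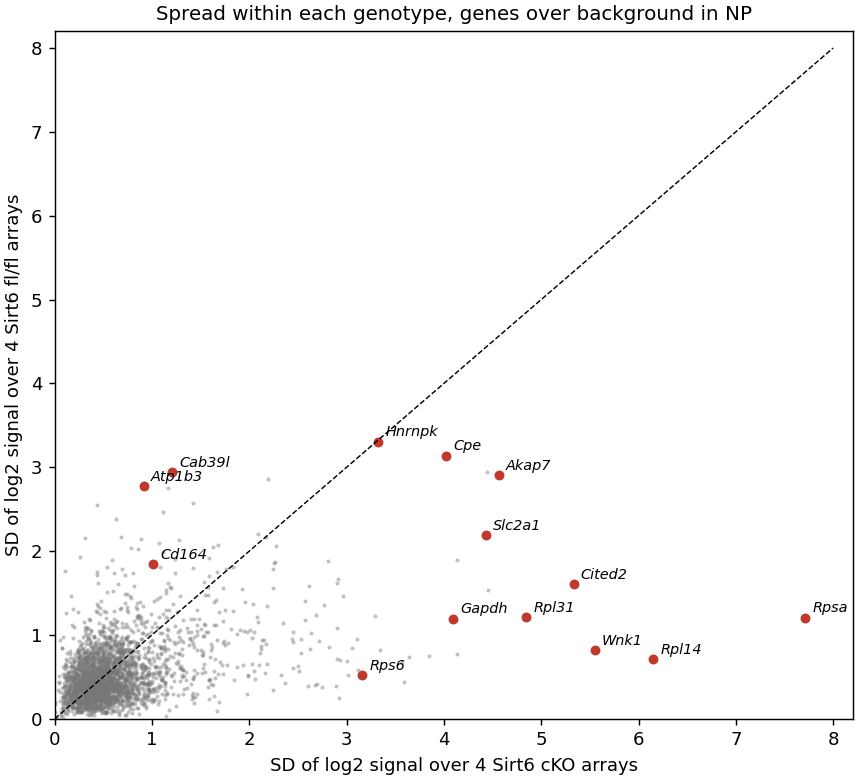
SD of the log2 signal over the 4 Sirt6 cKO arrays (x axis) against the SD over the 4 fl/fl arrays (y axis), 1 point per gene over background, with named genes in red; the dashed line marks equal SD. Rpsa, Rpl14, Wnk1 and Cited2 lie far to the right with fl/fl SDs of 1.20, 0.71, 0.82 and 1.60.

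The 10 genes with the largest SD over the cKO arrays had SDs of 4.13 to 7.71 there and 0.71 to 2.90 over the fl/fl arrays. Rpsa, a ribosomal protein that also serves as a laminin receptor, read 19.931, 6.51, 19.931 and 6.63 on cKO arrays 1 to 4, against 8.17, 8.31, 8.87 and 10.8 on fl/fl arrays 1 to 4. The value on cKO arrays 1 and 3 was the same and was the highest of any gene described here. Whether it is a limit of the scale is unknown, so the SD and difference of Rpsa carry that doubt. Gapdh, described below, also repeated a value on those arrays (12.708). Rpl14, of the large ribosomal subunit, read 18.7, 8.77, 15.96 and 5.51 in cKO, against 7.86, 8.46, 9.03 and 9.50 in fl/fl. For Rpsa every fl/fl array lay between a high and a low pair of cKO arrays, and for Rpl14 cKO array 2 lay among the fl/fl arrays.

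The pattern was not limited to ribosomal proteins. Wnk1, a kinase that controls ion transport and cell volume, read 14.3, 6.27, 15.4 and 4.41 in cKO, against 8.71, 6.78, 8.08 and 7.54 in fl/fl. Cited2, a co-regulator that restrains the hypoxia factor HIF-1, read 12.6, 3.42, 12.5 and 3.19 in cKO, against 5.98, 4.39, 3.91 and 7.43 in fl/fl. Eef1a1, the elongation factor that brings aminoacyl-tRNA to the ribosome, read 16.3, 8.44, 16.7 and 9.15 in cKO, against 11.8, 11.2, 12.2 and 14.7 in fl/fl. Means hide these values: the log2 differences of Rpsa and Eef1a1 were 4.22 ± 2.78 and 0.15 ± 1.69 (SE), and neither had an unadjusted limma p under 0.05. Without cKO arrays 1 and 3 both signs turned, to -2.46 for Rpsa and -3.70 for Eef1a1, and so did those of Wnk1 (2.31 with all arrays, -2.44 without) and Cited2 (2.49 and -2.12).

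Other wide genes were Rpl31, Akap7, Sumo3, Slc2a1 and the pseudogene Rpl31-ps12, which may share signal with Rpl31. Akap7, an anchor for protein kinase A, read 13.9, 5.31, 10.9 and 4.33 in cKO, against 5.02, 4.74, 10.9 and 5.91 in fl/fl, so that fl/fl array 3 was as high as cKO array 3. In the AF the same 10 genes had SDs of 0.67 to 3.11 over cKO arrays and 0.65 to 4.11 over fl/fl arrays. Apart from Akap7, the widest genes in fl/fl NP were highest on fl/fl array 4. Cpe, a carboxypeptidase that processes prohormones, read 13.2, 5.22, 11.3 and 5.56 in cKO, against 11.1, 8.24, 8.90 and 15.2 in fl/fl. Hnrnpk, an RNA-binding protein, read 10.004, 7.24, 12.6 and 4.96 in cKO, against 10.6, 7.03, 6.76 and 13.7 in fl/fl. Cab39l, Itm2b and Atp1b3 read 10.4, 10.5 and 10.6 on fl/fl array 4 and at most 7.60, 6.50 and 6.64 on the other 7 arrays.

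**Figure D4:**
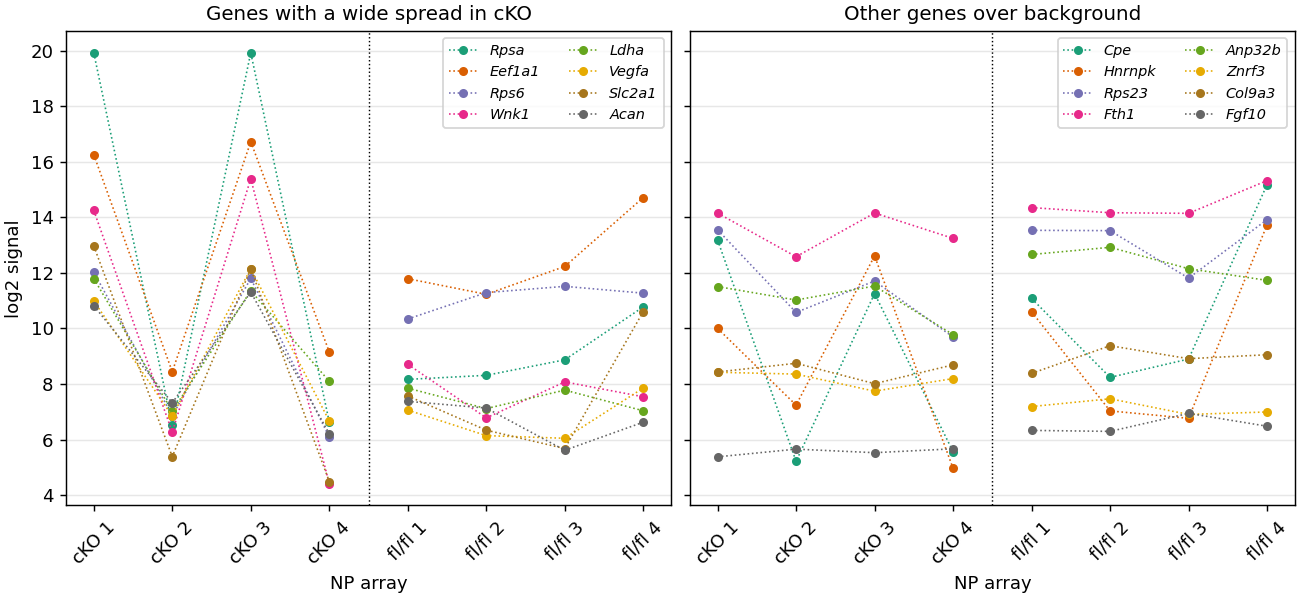
Log2 signal (y axis) on each NP array (x axis, 4 Sirt6 cKO arrays left and 4 fl/fl arrays right); dotted lines join the values of a gene as a guide and carry no order. The genes on the left are high on cKO arrays 1 and 3. On the right Znrf3, Col9a3 and Fgf10 span less than Cpe and Hnrnpk, which are highest on fl/fl array 4.

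Several of the brightest genes were flat. Atg16l2, related to an autophagy protein, read 18.6 to 19.1 over all 8 arrays. Rmc1, a subunit of a complex that activates the endosomal GTPase Rab7, Zscan2, a zinc finger protein, and Gar1, of the small nucleolar complex that makes pseudouridine, held the same value on 6, 6 and 7 of the 8 arrays, and spanned 0.13, 0.17 and 0.05 log2 units. A probe set that holds 1 value on most arrays cannot show whether the genotypes differ or are alike. Fth1, the heavy chain of ferritin, read 14.16, 12.58, 14.16 and 13.245 in cKO, against 14.35, 14.17, 14.15 and 15.33 in fl/fl, with a log2 difference of -0.96 ± 0.40 (SE) that was past the thresholds. Snord12, a small nucleolar RNA, averaged 12.2 ± 0.087 in cKO and read 11.9, 12.2, 13.6 and 13.9 in fl/fl. Taf15 was the reverse, with an SD of 0.72 in cKO and 0.05 in fl/fl.

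Ribosomal protein genes were the largest list. Of 56 tested, 47 were over background, 1 was past the thresholds and higher in cKO, 3 were past them and lower, and the median log2 difference was -0.13 (over all tested genes -0.02). The median SD was 1.59 in cKO and 0.943 in fl/fl, and 36 of 47 were wider in cKO. The mean signal of the 47 was 9.70, 6.54, 9.34 and 6.28 on cKO arrays 1 to 4, against 7.81, 7.35, 7.42 and 8.98 on fl/fl arrays. Rps23, near the decoding centre of the small subunit, read 13.6, 10.6, 11.7 and 9.69 in cKO, against 13.5, 13.5, 11.8 and 13.9 in fl/fl, and Rps3a1 and Rpl35 were lower in cKO by log2 differences of -1.68 and -1.30. Rpl23 was the higher one, at 8.93, 5.56, 8.90 and 5.79 in cKO, against 5.09, 6.03, 4.54 and 5.37 in fl/fl, and its log2 difference of 2.04 was 0.42 without cKO arrays 1 and 3. Rps6, the ribosomal protein phosphorylated by S6 kinase and named after its values were seen, read 12.03, 6.86, 11.8 and 6.09 in cKO, against 10.3, 11.3, 11.5 and 11.3 in fl/fl. Without cKO arrays 1 and 3 it was the only gene called (limma adjusted p = 0.00266 from the model fitted across all genes). Those arrays were set aside because such genes were high on them. The call depends on that choice, so nothing is read from it.

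Of 16 translation factor genes over background, 1 was past the thresholds. Eif4b, which helps unwind the cap-proximal mRNA, read 10.6, 6.11, 9.83 and 5.44 in cKO, against 5.64, 5.49, 5.75 and 6.38 in fl/fl. The log2 difference of 2.18 ± 0.96 (SE) was -0.0455 without cKO arrays 1 and 3. Eif4g2, a scaffold for translation without the cap-binding protein, differed by -0.58 ± 0.43 (SE) with overlapping groups.

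Glycolysis and the response to hypoxia gave the largest median of any pathway list with 5 or more genes over background, a log2 difference of 1.65, but this came from 9 of 33 tested genes, and over all 33 the median was 0.054. For 7 of the 9 the highest arrays were cKO 1 and 3, and the median SD was 2.82 in cKO and 0.747 in fl/fl. Ldha, which turns pyruvate into lactate, read 11.8, 7.02, 11.4 and 8.09 in cKO, against 7.85, 7.11, 7.78 and 7.03 in fl/fl. Vegfa, the vascular growth factor induced by HIF-1, read 10.99, 6.85, 12.2 and 6.67 in cKO, against 7.06, 6.14, 6.04 and 7.86 in fl/fl. Both were past the thresholds (log2 differences 2.12 and 2.39), and both lost this without cKO arrays 1 and 3 (0.11 and -0.0184).

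The glucose transporter gene Slc2a1 read 12.97, 5.38, 12.2 and 4.49 in cKO, against 7.57, 6.34, 5.67 and 10.6 in fl/fl. Gapdh, a glycolysis enzyme named after its values were seen, read 12.7, 5.57, 12.7 and 5.65 in cKO, against 7.74, 5.92, 5.89 and 8.17 in fl/fl. Bnip3l, a mitophagy receptor, read 11.2, 5.80, 12.5 and 4.78 in cKO, against 6.46, 5.08, 6.78 and 5.93 in fl/fl. For these 3 genes the SD over cKO arrays (4.43, 4.10 and 3.85) was larger than the log2 difference (1.20, 2.23 and 2.52). Without cKO arrays 1 and 3 all 3 signs turned, to -2.61, -1.32 and -0.77. Bnip3, a relative of Bnip3l, stayed near background and was lower in cKO (5.35, 5.02, 5.18 and 4.78, against 5.67, 5.61, 5.29 and 6.11 in fl/fl).

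Since 7 of these genes shared the same highest arrays, their promoters were read for ACGTG, the core that HIF-1 binds, on both strands, in the 250 bases before the start (RefSeq, build GRCm38.p6). Windows were found for 8 of the 9 genes, and 3 of them (Slc2a1, Ldha and Bnip3) held the core in the first window listed, where 16.6% of all genes did. Aldoa, Pkm and Vegfa held it only in a later window, so that 6 of 8 held it in any window. Genes with several windows have more places to match. The share of all genes with the core in any window was not computed, so the 6 of 8 has nothing to stand beside. The first 3 are shown 5′ to 3′ with the core or its reverse complement CACGT in capitals, where both overlap in CACGTG, because 2 of the genes shared the high pair of arrays and 1 did not.
Ldha, chr7:46845554-46845803, plus strand: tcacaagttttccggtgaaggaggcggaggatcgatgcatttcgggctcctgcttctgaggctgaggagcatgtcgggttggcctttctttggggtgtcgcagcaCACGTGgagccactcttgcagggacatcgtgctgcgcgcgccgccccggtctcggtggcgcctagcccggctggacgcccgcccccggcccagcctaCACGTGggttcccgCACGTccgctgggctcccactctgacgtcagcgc
Slc2a1, chr4:119108495-119108744, plus strand: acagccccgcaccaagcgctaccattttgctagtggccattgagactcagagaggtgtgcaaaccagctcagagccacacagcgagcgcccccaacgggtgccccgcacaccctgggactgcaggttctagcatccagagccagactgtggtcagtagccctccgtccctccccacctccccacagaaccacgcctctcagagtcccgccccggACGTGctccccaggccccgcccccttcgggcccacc
Bnip3, chr7:138909507-138909756, minus strand: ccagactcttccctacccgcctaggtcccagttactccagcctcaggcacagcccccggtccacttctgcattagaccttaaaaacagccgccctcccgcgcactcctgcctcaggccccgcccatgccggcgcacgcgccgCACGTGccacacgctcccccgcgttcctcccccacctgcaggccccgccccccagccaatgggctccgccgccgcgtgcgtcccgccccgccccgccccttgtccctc
A match describes letters only, and Bnip3, with 2 overlapping matches, had the narrow profile given above.

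Collagen genes spread less than the lists above. Of 12 collagen genes over background, 0 were past the thresholds (2.47% higher and 2.04% lower over all genes over background). Their median SD was 0.330 in cKO and 0.379 in fl/fl. Col9a3, a chain of cartilage collagen IX, read 8.43, 8.75, 8.01 and 8.69 in cKO, against 8.38, 9.38, 8.91 and 9.05 in fl/fl. Col2a1, the main fibril collagen of the NP, spread most, at 7.33, 5.91, 9.08 and 5.18 in cKO, against 5.43, 5.16, 6.52 and 5.20 in fl/fl (difference 1.30 ± 0.68, SE, or -0.03 without cKO arrays 1 and 3). Col6a3, of microfibrillar collagen VI, was also highest on cKO arrays 1 and 3, with an SD of 1.09 in cKO and 0.39 in fl/fl. The 3 proteoglycan and cartilage matrix genes over background (Acan, Fn1 and Sox5) had a median SD of 1.57 in cKO and 0.38 in fl/fl. Acan, the large proteoglycan of the NP and the gene whose locus drives Cre, read 10.8, 7.32, 11.3 and 6.21 in cKO, against 7.38, 7.13, 5.61 and 6.62 in fl/fl. Its log2 difference of 2.23 ± 0.96 (SE) was past the thresholds and was 0.08 without cKO arrays 1 and 3. The Cre knock-in into Acan is carried by the cKO mice alone, and its part in the Acan signal was not tested.

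Some genes were listed because their proteins were measured in the study. Of 13 such genes on the array, 5 were over background: Acan, Il1b, Col1a1, Txnip and Map1lc3a. TXNIP and LC3 were measured in cultured NP cells after Sirt6 knockdown and the others in discs of these genotypes, and none of the 5 is independent evidence of a direction. Il1b, an inflammatory cytokine, averaged 5.44 ± 0.40 in cKO and 5.29 ± 0.48 in fl/fl. Txnip, an inhibitor of thioredoxin and glucose uptake, read 10.5, 5.94, 10 and 5.07 in cKO, against 7.97, 6.93, 9.54 and 9.79 in fl/fl. Map1lc3a, a protein of autophagosomes, averaged 6.16 ± 0.72 in cKO and 6.03 ± 0.38 in fl/fl. The cell cycle inhibitor gene Cdkn1a was over background only on fl/fl arrays 3 and 4 (log2 difference -1.18) and was left out by the rule. So was Map1lc3b, the other LC3 gene listed, over background only on cKO arrays 1 and 3 (log2 difference 1.47). Il6, Tgfb1, H2ax and Col10a1 were left out as well, among others.

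The study named histone modification, DNA damage and cohesin as themes on these arrays, so those lists are not independent evidence either. Of 4 histone acetyltransferase genes over background, 1 was past the thresholds: Kat6b, the MORF acetyltransferase, at 7.18, 5.48, 6.30 and 4.99 in cKO, against 4.401, 5.403, 4.71 and 4.92 in fl/fl (difference 1.13, or 0.38 without cKO arrays 1 and 3). Of 4 histone deacetylase and corepressor genes, 0 were past them, and Mta2, of the NuRD complex, was nearest at 0.76 ± 0.32 (SE). In double strand break repair, Mdc1, which reads phosphorylated H2AX, was past them at 0.85 ± 0.36 (SE, or 0.39 without cKO arrays 1 and 3), and Chek1, the checkpoint kinase and a bright gene, lay at 11.1, 10.5, 10.5 and 11.1 in cKO, against 11.01, 12.4, 11.7 and 11.1 in fl/fl. Of 3 nucleotide excision repair genes 0 were past them, and Xpc, the damage sensor, differed by -0.01. Smc1a, a core subunit of cohesin, read 5.07, 5.65, 5.78 and 6.87 in cKO, against 6.71, 6.32, 6.75 and 6.82 in fl/fl, so that cKO array 4 was the highest of all (difference -0.81, or -0.39 without cKO arrays 1 and 3). The other cohesin gene over background, Rad21, differed by 0.03 (-0.32 without cKO arrays 1 and 3).

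Oxidative phosphorylation had 19 genes over background of 53 tested, with 1 past the thresholds and a median log2 difference of -0.10 (0.053 over all 53). Cycs, cytochrome c, read 6.89, 6.21, 8.201 and 6.89 in cKO, against 6.26, 6.28, 5.92 and 5.79 in fl/fl (difference 0.99, or 0.48 without cKO arrays 1 and 3). Of 11 splicing factor genes 1 was past them, Hnrnpl, at 5.52, 4.28, 5.66 and 4.62 in cKO, against 6.09, 4.65, 8.65 and 9.25 in fl/fl. The cKO arrays lay under 3 of the 4 fl/fl arrays, with fl/fl array 2 among them. Among 9 antioxidant genes, Fth1 was the 1 past the thresholds, while the superoxide dismutase gene Sod1 differed by -0.83 and the peroxiredoxin gene Prdx1 by -1.23.

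The next lists are short, and at the shares over all genes over background (2.47% higher and 2.04% lower) most would hold none. No gene was past the thresholds among 8 autophagy, 8 endosomal sorting, 4 lysosome, 9 proteasome, 8 ER chaperone, 6 Golgi transport, 5 nuclear transport or 9 deubiquitinase genes over background. Their median log2 differences were 0.15, 0.11, -0.16, -0.02, -0.10, 0.66, -0.28 and 0.15, where all tested members of the same lists gave 0.12, 0.12, -0.19, -0.02, 0.039, 0.052, 0.035 and 0.015. The sign thus differed for ER chaperones and nuclear transport. Hspa5, the chief chaperone of the ER, read 5.55, 5.81, 6.65 and 6.30 in cKO, against 6.79, 6.16, 6.61 and 8.61 in fl/fl. Rab7, the GTPase of late endosomes, read 10.6, 6.22, 9.82 and 4.74 in cKO, against 5.09, 4.47, 6.03 and 8.74 in fl/fl. Arf4, of Golgi transport, was highest on cKO array 3 at 8.44. Of 6 Wnt genes, Znrf3 alone was past the thresholds, and the ligand gene Wnt5a averaged a log2 difference of -0.43.

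**Figure D5:**
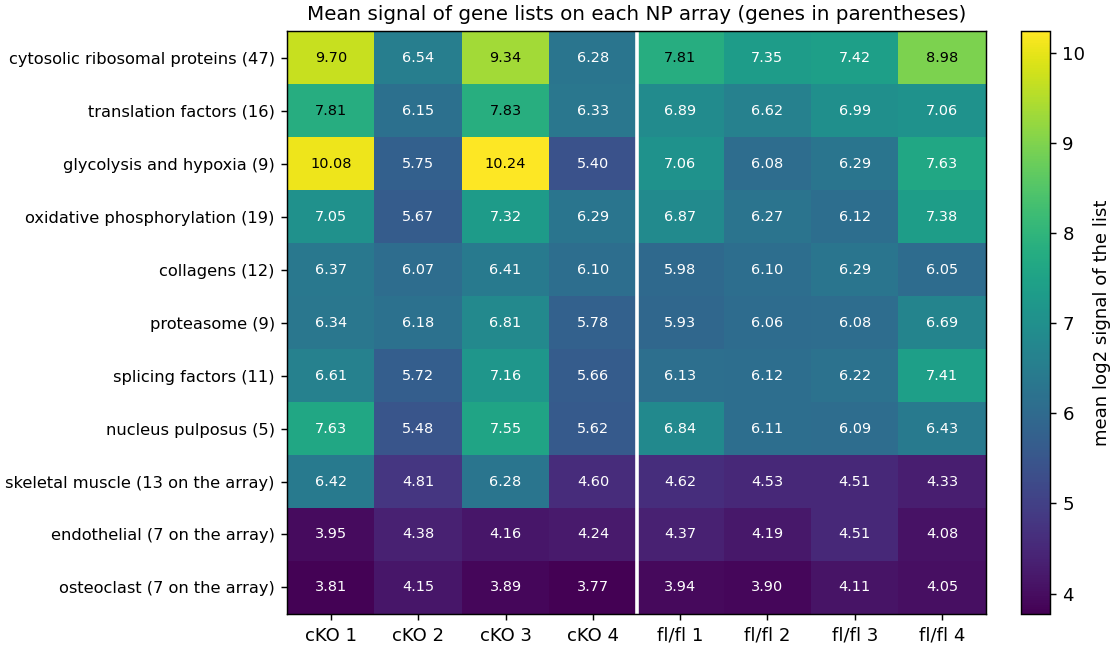
Mean log2 signal (colour and printed value) of each gene list (rows) on each NP array (columns, Sirt6 cKO left of fl/fl), over the genes of the list over background or, where stated, all on the array. Ribosomal, translation factor, glycolysis, muscle and nucleus pulposus lists are highest on cKO arrays 1 and 3. Collagens are too, though they differ by less than 0.5 between any 2 arrays.

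Markers of skeletal muscle were high on cKO arrays 1 and 3. The mean of all 13 muscle genes on the array was 6.42, 4.81, 6.28 and 4.601 on cKO arrays 1 to 4, and 4.33 to 4.62 over the fl/fl arrays (summed log2 signals of 59.8 to 83.4 in cKO and 56.2 to 60.1 in fl/fl). For 7 of the 13 the highest pair was cKO 1 and 3. The fast myosin genes Myh4 and Myh8 read 10.7 and 11.1 on cKO array 1 and 9.51 and 9.81 on cKO array 3, and at most 5.41 and 4.18 on the other 6 arrays. Neither met the background rule, and 4 of the 13 did, Pygm among them. Of the 13, 10 were over background on 1 or more cKO arrays and 4 on 1 or more fl/fl arrays. Pvalb, the calcium buffer of fast fibres, read 6.27, 4.27, 6.22 and 4.09 in cKO, and 3.76 to 4.41 in fl/fl, while Ckm, Mylpf and Tnni2 were over background on 0 arrays. Chondrocyte markers did the same in part: the mean of 11 was 5.84, 4.83, 6.02 and 4.55 in cKO, and 4.69 to 4.94 in fl/fl, with 3 of 11 highest on cKO 1 and 3. For 0 of 8 macrophage markers was that pair the highest, with means of 3.99 to 4.46 in cKO and 4.12 to 4.39 in fl/fl. The mean of the 10 NP markers was also highest on cKO arrays 1 and 3: 6.08, 4.83, 6.10 and 4.95 in cKO, and 5.34 to 5.67 in fl/fl. On cKO arrays 2 and 4 it lay under every fl/fl array, which the muscle mean did not. Means of adipocyte and of Schwann and neuron markers were also highest on cKO arrays 1 and 3. Those of annulus, neutrophil, keratinocyte, osteoclast, osteoblast, endothelial and erythroid markers were not. The part of other tissue in the genes high on cKO arrays 1 and 3 was not tested.

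The same genes were set against the AF. Of the 28 named genes past the thresholds in NP, 22 were over background on 4 or more AF arrays, 18 differed in the same direction there, and 1 (Zmiz1, 0.86) had an unadjusted limma p under 0.05. The matching shares of all genes for the 22 and the 18 were not computed, so these counts have nothing to stand beside. In the AF, 0% of 16665 genes were called (667 at an unadjusted p under 0.05, lowest adjusted p = 0.984). The limma interaction of genotype and tissue called 0% as well (687 at an unadjusted p under 0.05, lowest adjusted p = 0.988). Of the 28, 9 had an unadjusted interaction p under 0.05 in limma. The 28 were chosen by their NP difference, which enters the interaction, so nothing is read from the 9. Thus no gene was shown to have a genotype difference that differs between the tissues. Ppp1r11 was lower in cKO in both tissues (-1.14 in NP and -0.99 in AF), while Acp1 and Apex1 had opposite signs (-1.58 and 1.30 in NP, 0.78 and -0.66 in AF). The labels do not say which NP and AF arrays share a mouse, and the fit treated them as separate.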

How the data were processed

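NP and AF of Sirt6 cKO and fl/fl mice were hybridised to Mouse Clariom S arrays, and groups follow the labels. The authors normalized the scanner files by SST-RMA in Expression Console, so each deposited value is a probe set's log2 signal, and whether NP and AF were normalized together is not given; the submitters' notes name the Transcriptome Analysis Console. Of 28846 probe sets, 19505 symbols were named through the platform annotation (the brightest probe set for 55 symbols with several). Genes over the 40th percentile of an array on at least 4 of 16 arrays were tested (16665). Genotypes were compared with limma 3.58.1 in R 4.3.3 (lmFit, eBayes, no covariate), adjusted by Benjamini and Hochberg over all tested genes; Sirt6 by an exact permutation test. Past the thresholds means an unadjusted p up to 0.05 with a log2 difference of 0.81 or more in size. The fit was tested on simulated data first. Genome build and scan batches are not given in the sources used here. Mice sharing a replicate number did not deviate together (correlations of -0.13 to 0.03), so numbers do not pair them.

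Members and lists were chosen with earlier results of these data known. Named genes were Sirt6, the 14 per direction with the lowest p past the thresholds, the 10 brightest, the 10 widest in cKO and 6 in fl/fl, genes over background in 1 genotype alone, up to 4 per list by p, proteins the study measured, cell type markers and the genes nearest the rule. Predicted genes were not named. Alternatives were other filters, normalizations, variance models, array weights, a replicate block, 1 fit over 16 arrays and arrays left out; restricting to protein-coding genes and to genes present on 2 or more arrays of each genotype were added after seeing the data. Means are given ± SD. Figures were drawn with matplotlib 3.10.9.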

Additional observations from a re-analysis of the deposited data

Results flagged for a closer look

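Of 358 groups of 4 arrays (each named gene in each genotype), 17 held 1 array far from the other 3, where chance gives about 1 in 20. In cKO NP these were a high array for Qrich1 (6.88 on array 3) and low arrays for Olfr178 (4.32 on array 3), Ppp1r11 (5.24 on array 1), Psmd8 (5.59 on array 2), Usp16 (5.72 on array 4), Gar1 (14.3 on array 1) and Rmc1 (16.9 on array 1). In fl/fl NP, array 4 was high for Cab39l (10.4), Hsp90aa1 (6.37), Psmd1 (7.20), Rpl31 (12.25) and Sbsn (11.94). Array 2 was high for Amdhd2 (6.35) and low for Col4a2 (5.78) and Rmc1 (16.98), and array 3 was high for Rbbp4 (7.70) and low for Xrcc4 (4.59). A pair of high arrays, such as cKO 1 and 3, is not found by this rule.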

How the results depend on the processing

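No gene was called in 18 of 19 alternatives (lowest adjusted limma p 0.610 to 1), and 1, Rps6, without cKO arrays 1 and 3 together (744 at an unadjusted p under 0.05). Past the thresholds, 69 genes were higher and 57 lower in cKO, of 398 tested. These were 45 higher (85 tested) with the stricter filter, and 24, 18 and 179 with the unmoderated test. Without cKO arrays 1 and 3 together 152 were lower and 616 tested, with 47 of the 126 shared. Genes over background on 2 or more arrays of each genotype gave 39 higher (46 lower). Leaving out 1 array gave 36 to 156 higher (43 without cKO array 1, 156 without 2, 36 without 3 and 150 without 4), 55 to 98 lower (86 without cKO array 4 and 98 without fl/fl array 1) and 342 to 710 tested (653 without cKO array 2 and 710 without 4). Quantile normalization (69 and 71) and centring each array (73 and 49) gave similar counts. The replicate block gave 89 and 70 and called 0 genes.

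The 2791 genes became 756 at 2 log2 units over background, 928 on all 8 arrays and 1800 over the median of the intron controls. The share with the larger SD in cKO was 50.6% to 60.1% with 1 array left out and 38.8% without cKO arrays 1 and 3. These shares set SDs over unequal numbers of arrays side by side, so they are not like the 54.6% with all arrays. The Sirt6 difference, -0.03, ran from -0.227 to 0.055 with 1 array left out (positive without cKO array 1, 0.055, 2, 0.0497, or 3, 0.0172, or fl/fl array 3, 0.0548, or 4, 0.0267). Of the 51 named genes with an unadjusted p up to 0.05, 49 kept their sign in every alternative, and Eif4b (-0.0455) and Vegfa (-0.0184) turned without cKO arrays 1 and 3. Of the other 128 named genes over background, 43 turned without those arrays, among them Rpsa, Eef1a1, Slc2a1, Bnip3l and Col2a1. The causes were not tested. Most genes lay near background, which limits what the arrays can show.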
